A study of Mus musculus with 73 samples.

Results

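The cells with the most and the least messenger RNA among lung macrophages sorted from a regenerating mouse lung were compared here. RNA content was taken, in each cell, as fragments of mouse genes per fragment of 1 added spike-in RNA. The cells were chosen by this measured ratio: the 24 highest and the 24 lowest of 73 cells were taken, and the 25 cells between them are given beside them. Because the ratio chose the cells, its values describe the groups and support nothing further.

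All 73 cells came from 1 mouse, a 10-week adult of genotype Csf1r-GFP on a B6 background, in which green fluorescent protein marks cells that use the promoter of the colony-stimulating factor 1 receptor gene. That promoter is active in monocytes as well as macrophages. The left lung had been removed by surgery (pneumonectomy), and the cells were taken 7 days later from the right lobes, so high, middle and low cells share genotype, age, operation and day. The sort was for CD45+, CSF1R-GFP+ and F4/80+ cells, with Ly6G named without a sign. Polyadenylated RNA of each cell was amplified on a microfluidic chip (Fluidigm C1, SMARTer chemistry), and a fixed mass of the product entered each Nextera XT library. Cells of 1 mouse are not replicates of a condition, so no p-value is given, and spreads are between cells.

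A spike-in is an RNA of known sequence that is meant to be added in the same amount to every reaction. The amount added per well is not given in the sources used here, so equal addition is an assumption behind every ratio. When equal amounts of amplified product are sequenced, a cell with more RNA of its own leaves fewer reads for the spike-in, so the ratio follows the RNA that was captured from the cell. Cells that grow or prepare to divide generally hold more RNA, and cells that are small, resting or damaged hold less. RNA lost at lysis or capture and RNA that the cell never held cannot be told apart here.

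The ratio ran from 0.410 to 1.36 in the low cells, with a median of 0.826. In the high cells it ran from 2.201 to 6.05, with a median of 2.87, which is 3.48 times the low median. The middle cells lay between 1.40 and 2.17, so the last cells inside and the first cells outside each group differed little (1.36 against 1.40, and 2.201 against 2.17). Mouse fragments had medians of 2199920 in the high, 1421060 in the middle and 740434 in the low cells. Spike-in fragments varied less, with medians of 720222, 849486 and 858814.

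More genes were detected in the high cells. The median number of genes at 1 FPKM or more, after each cell's mouse FPKM (fragments per kilobase of transcript, scaled for depth) was rescaled to a total of 1000000, was 3144.5 in the high cells, 2398 in the middle and 2199 in the low. Deeper libraries find more genes, so every cell was also thinned to 347003 mouse fragments, the smallest total of any cell. Genes with at least 1 fragment then had medians of 3231.5, 2561 and 2291.5, against 4024.5, 3037 and 2646.5 without thinning. At equal depth the high cells ranged from 2604 to 4240 genes and the low cells from 1271 to 3376, so the groups overlapped.

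**Figure D1:**
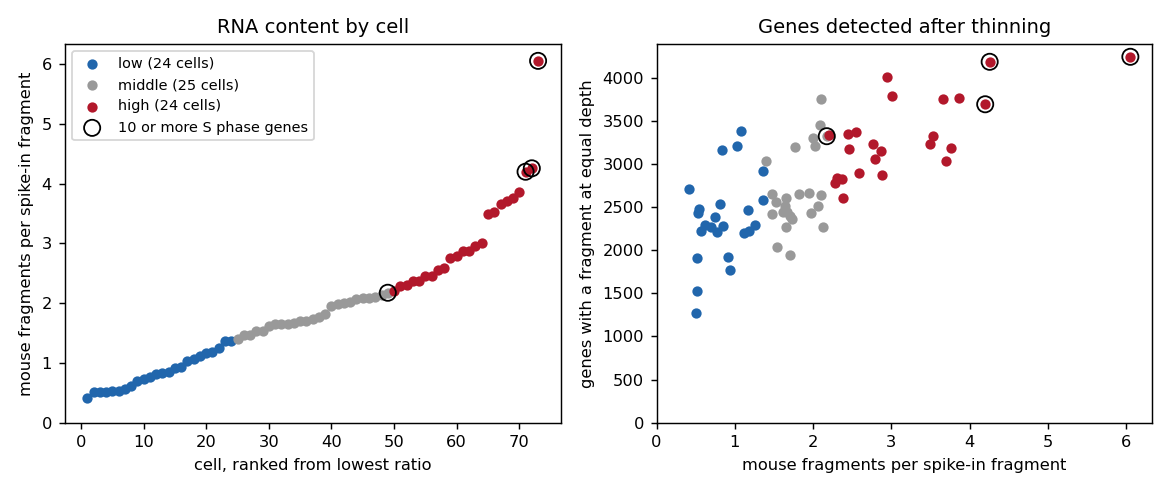
Left, mouse fragments per spike-in fragment for each of the 73 cells, ranked from lowest to highest. Right, the number of genes with a fragment after thinning to 347003 fragments, against the same ratio; colours give the low (24), middle (25) and high (24) cells, and rings mark cells with 10 or more S phase genes, 3 of them at the 3 highest ratios.

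The sort markers were present in both groups. Ptprc, which encodes CD45, was detected (rescaled FPKM of 1 or more) in 24 of 24 high and 22 of 24 low cells, and Csf1r in 24 and 20. Emr1, which encodes F4/80, was detected in 19 high and 10 low cells, and Ly6g was not analysed here. Cells with at least 6 markers of classical monocytes (such as Ly6c2, Ccr2 and Plac8, at rescaled FPKM of 10 or more) numbered 15 of 24 in the high and 15 of 24 in the low group (62.5% in each, exact Clopper-Pearson 95% interval 40.6 to 81.2%). Cells with at least 6 alveolar macrophage markers (such as Ear2, Marco and Car4) numbered 8 of 24 high cells (33.3%, interval 15.6 to 55.3%), 5 of 25 middle and 3 of 24 low cells (12.5%, interval 2.66 to 32.4%). These intervals cover counting error only, and they overlap. Both marker sets were carried by 3 cells, all of them high, and no doublet caller was run. The summed alveolar marker level, over 14 of 15 genes, ran from 0 to 26783 in the high cells (median 3437) and from 0 to 34463 in the low cells (median 2587).

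Few cells carried several markers of another lineage. At least 3 markers of a lineage outside mononuclear phagocytes were found in 3 high, 2 middle and 4 low cells. These were neutrophil markers in 2 high, 1 middle and 3 low cells, endothelial markers in 1 high and 2 low cells, and epithelial markers in 1 middle cell. High cell 38 carried 5 markers of 1 such lineage, and low cells 2 and 54 carried 8 and 12. Cd3e, Cd79a, Cpa3, Epx, Hba-a1, Camp and Ngp were listed at 0 in all 73 cells, but other members of these lists were not. Summed T and NK markers reached 1303 in the high and 935 in the low cells. B cell markers reached 50.5 and 412, and neutrophil markers 9676 and 1587. The summed endothelial markers (12 of 12 genes) reached 3103 in the high and 14064 in the low cells, with Cldn5 at 0 in every high cell. The wells were uneven too: by the well positions in the column names, 7 of 10 cells in row E were high, and 6 of 10 in row H were low with 1 high.

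Respiratory chain and secretory genes had larger summed levels in the high cells, with medians of 39167 and 9006 against 33877 and 7823. Summed levels of ribosomal protein and immediate early genes were smaller there. From each of these lists 1 promoter is printed, as the 250 bases before the start of transcription. The bases are from RefSeq on build GRCm38.p6, 5′ to 3′ on the gene's strand. Capitals mark exact matches, on either strand, to the core of the NRF1 motif, CGCATGCG, the ETS motif CCGGAAG or the cyclic AMP response element TGACGTCA. In these windows no match overlapped another. Cox6a1 encodes a subunit of cytochrome c oxidase, Sec11a the catalytic subunit of signal peptidase, Rpl41 a ribosomal protein and Dusp1 a phosphatase of MAP kinases.
Cox6a1, chr5:115348959-115349208, minus strand: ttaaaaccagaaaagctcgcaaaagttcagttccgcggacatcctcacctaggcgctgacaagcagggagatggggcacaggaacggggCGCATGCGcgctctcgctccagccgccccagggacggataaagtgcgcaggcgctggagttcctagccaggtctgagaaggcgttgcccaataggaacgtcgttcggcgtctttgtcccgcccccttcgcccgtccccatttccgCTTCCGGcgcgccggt
Sec11a, chr7:80947551-80947800, minus strand: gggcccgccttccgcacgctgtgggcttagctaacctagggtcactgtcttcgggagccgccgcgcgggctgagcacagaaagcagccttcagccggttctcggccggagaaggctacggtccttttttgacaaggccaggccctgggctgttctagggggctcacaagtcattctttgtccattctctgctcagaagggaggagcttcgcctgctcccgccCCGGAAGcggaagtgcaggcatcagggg
Rpl41, chr10:128549169-128549418, minus strand: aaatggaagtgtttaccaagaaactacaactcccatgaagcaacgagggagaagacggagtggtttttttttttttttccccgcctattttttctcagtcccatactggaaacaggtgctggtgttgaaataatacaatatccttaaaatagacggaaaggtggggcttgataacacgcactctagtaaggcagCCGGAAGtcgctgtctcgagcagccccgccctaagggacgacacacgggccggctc
Dusp1, chr17:26508473-26508722, minus strand: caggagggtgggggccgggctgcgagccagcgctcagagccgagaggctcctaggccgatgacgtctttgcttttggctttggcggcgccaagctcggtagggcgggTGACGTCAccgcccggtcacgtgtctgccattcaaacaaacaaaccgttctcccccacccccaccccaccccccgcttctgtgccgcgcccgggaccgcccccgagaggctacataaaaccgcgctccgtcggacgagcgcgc

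Of all 32851 promoter windows, 1.55% held the NRF1 core, 6.91% the ETS motif and 1.55% the cyclic AMP element. The NRF1 core was in 8 of 64 windows of oxidative phosphorylation genes (12.5%), 1 of 33 proteasome windows and 0 of 68 ribosomal protein windows. The ETS motif was in 10 of 33 proteasome windows (30.3%), 19 of 68 ribosomal protein windows (27.9%), 12 of 64 oxidative phosphorylation windows (18.8%) and 1 of 27 immediate early windows. The cyclic AMP element was in 6 of 68 ribosomal protein windows and 2 of 27 immediate early windows, those of Btg2 and Dusp1. A match describes letters in the window and not binding of a factor.

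Levels of single genes were compared over 6815 genes detected in at least 8 cells. By the difference of mean log2(rescaled FPKM + 1), 2138 genes were at least 1 log2 unit higher in the high cells (31.4% of those tested) and 132 were at least 1 unit lower (1.94%). By the log2 ratio of mean rescaled FPKM, with the same threshold, 1953 genes were higher (28.7%) and 1487 lower (21.8%). The higher genes were thus 94.2% of those past the threshold by the first measure and 56.8% by the second. The median gene differed by 0.52 by the first and 0.06 by the second. Both measures together placed 1050 genes higher and 118 lower, and 413 of the 2138 had a ratio of means below 1. Of 13 alveolar markers measured, 8 were higher (61.5%, against 31.4% of all genes) and 0 lower by mean log2. The ratio of means put 3 higher (23.1%, against 28.7%) and 1 lower (7.69%, against 21.8%). Without the cells that carried at least 6 alveolar markers, the 19 highest against the 19 lowest of the rest gave 2254 genes higher and 183 lower. By mean log2, regrouping the remaining cells as 21 against 21 gave 2191 genes higher and 138 lower without row H, and 2113 and 150 without the cells with other-lineage markers.

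The first measure gives more weight to the number of cells in which a gene is found, and the second to its abundance. Both depend on detection, because the means of the second include the cells at 0. In 5 equal bins of mean level, the median difference of mean log2 went from 0.10 in the lowest bin to 1.48 in the highest, while the log2 ratio of means stayed between -0.05 and 0.34. A gene undetected because few of its molecules were present in a low-RNA cell and a gene with a smaller share of that cell's RNA cannot be told apart. Among the 82 genes detected in all 73 cells, where detection plays no part, the median difference of mean log2 was 0.13. Of these 82, 9 were higher and 3 lower, against 31.4% and 1.94% of all genes. Their median log2 ratio of means was -0.25. The 2 measures thus differed in sign for these genes, while both medians over all genes were positive. The mean of the middle cells lay between the other two groups for 77.3% of the 2138 higher genes and 64.4% of the 132 lower genes, against 46.6% of all genes.

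**Figure D2:**
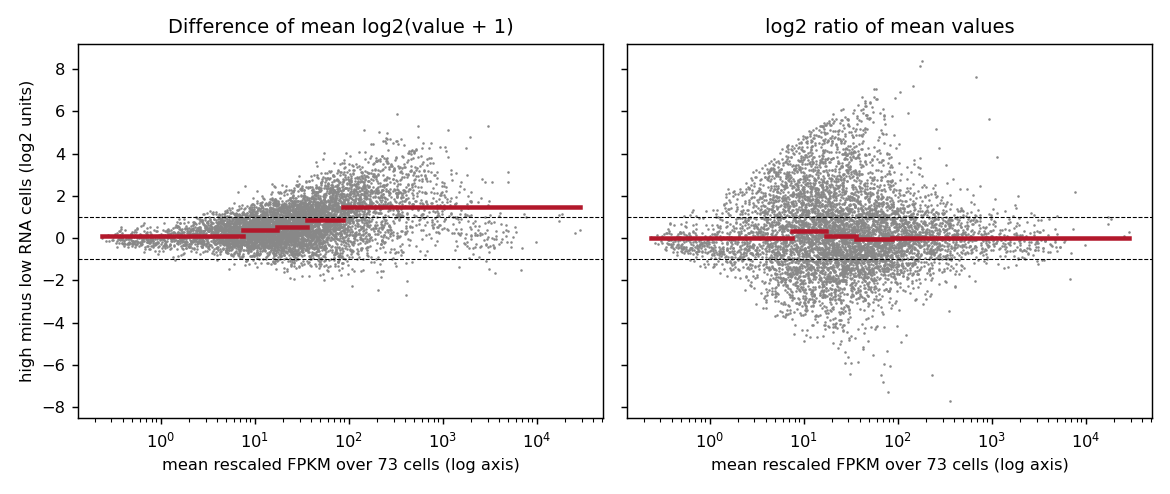
Each grey point is 1 of 6815 genes, at its mean rescaled FPKM over 73 cells (log axis) and its difference between high and low cells, as a difference of mean log2(value + 1) on the left and a log2 ratio of means on the right. Red bars give the median of each of 5 bins of mean level and dashed lines a 2-fold difference; the red bars climb to 1.48 on the left and stay between -0.05 and 0.34 on the right.

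The leading higher genes were ranked by mean log2 difference among genes detected in at least 12 of the 24 high cells, so their detection in many high and few low cells follows from the ranking. Plp2 (chrX:7667941-7671390), a membrane protein of the endoplasmic reticulum, had a median rescaled FPKM of 360 in the high cells (0 to 2030) and 0 in the low cells (0 to 810). It was detected in 21 high, 12 middle and 4 low cells, and its mean was 567 ± 632 (SD, 24 cells) against 50.4 ± 171. In 7 high cells it exceeded every low cell. Capg (chr6:72544391-72562983), a macrophage protein that caps actin filaments, had a median of 491 in the high cells (2.92 to 2048) and 9.41 in the low cells (0 to 1141). Capg was detected in every high cell, 16 of 25 middle and 14 of 24 low cells, and its means differed 4.19-fold. The groups overlapped for both genes.

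Ccl2 (chr11:82035571-82037453), the chemokine that draws CCR2-bearing monocytes, was detected in 18 high, 16 middle and 8 low cells. Its median was 480 in the high cells (0 to 10249) and 0 in the low cells (0 to 1142), and its mean was 14.5 times higher in the high cells. The middle cells, with a median of 629, were closer to the high cells. The cytokine and chemokine list as a whole differed less: of 22 measured cytokine and chemokine genes, 11 were higher (50%, against 31.4% of all genes) and 1, Il10, lower by mean log2. The ratio of means put 6 higher (27.3%, against 28.7%) and 7 lower (31.8%, against 21.8%), and their summed share was near equal, with medians of 12212 and 11724. Il1b, an inflammatory cytokine, had medians of 1960 in the high and 2298 in the low cells. Cxcl2, a chemokine for neutrophils, had a median of 1574 in the high cells (0 to 5587) and 2548 in the low cells (0 to 17770). Ccl6 was higher in the high cells, with medians of 2176 and 449.

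Genes of the mitochondrial respiratory chain and ATP synthase made up 5 of the 15 leading genes: Cox5b, Ndufs8, Usmg5, Cox6a1 and Ndufc2. Cox5b (chr1:36691449-36693681), a cytochrome c oxidase subunit, had a median of 634 in the high cells (9.62 to 2402) and 0 in the low cells (0 to 2592), and was detected in 24 high, 23 middle and 11 low cells. Where it was detected, its mean was 731 in the high and 694 in the low cells. Cox6a1 (chr5:115345642-115348981) had medians of 2037 and 43.8 and was detected in 24 and 17 cells. Ndufs8, a complex I subunit, was detected in 18 and 5 cells, and its means differed 40.4-fold. Of 73 nuclear oxidative phosphorylation genes, 67 were past the threshold upward (91.8%, against 31.4% of all genes) and 0 downward by mean log2, with a median difference of 2.44. By the ratio of means 16 were higher (21.9%, below the 28.7% of all genes) and 3 lower, with a median of 0.18. Their summed share of mouse FPKM was 39167 per 1000000 in the high cells and 33877 in the low cells (medians), a 1.16-fold difference. Fewer of these genes were detected in the low cells: at equal depth a median of 36.5 of the 73 were found, against 60 in the high cells. The mitochondrial genome's own 13 transcripts were not analysed here.

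The proteasome, which degrades tagged proteins, took a larger share in the high cells. Of its 35 genes 31 were higher (88.6%, against 31.4% of all genes) and 0 lower by mean log2, with a median difference of 2.48. Its ratio-of-means counts were 10 higher (28.6%, near the 28.7% of all genes) and 2 lower. Their summed share had a median of 8501 in the high cells (4528 to 12886), 7455 in the middle and 5337 in the low cells (916 to 15148), and 23 of 24 high cells lay above the low median. Psme2 (chr14:55587441-55591113), a subunit of the interferon-inducible activator cap, had medians of 428 and 0 and was detected in 21 high and 9 low cells. Psma3, a core subunit, was detected in 22 and 11. Psma1, among the 15 leading genes, was detected in 23 and 9 cells, yet its means were within 1.15-fold of each other (364 against 317).

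Glycolytic enzymes took a larger share in the high cells. Their summed share had a median of 3947 in the high (1307 to 6344), 2711 in the middle and 2153 in the low cells (418 to 7935), which is 1.83-fold, and 21 of 24 high cells lay above the low median. Of 17 genes 9 were higher (52.9%, against 31.4% of all genes) and 1, the hexokinase gene Hk1, lower by mean log2. The ratio of means put 4 higher (23.5%, against 28.7%) and 3 lower (17.6%, against 21.8%). Ldha (chr7:46841475-46855627), which turns pyruvate to lactate, had medians of 311 and 0 and was detected in 23 high and 11 low cells. Aldoa, an enzyme of the middle of the pathway, had medians of 864 in the high cells (48.02 to 2396) and 56.0 in the low cells (0 to 3805). Gapdh, often taken as a stable reference, had medians of 784 and 305 and was not detected in 5 low cells. Slc2a1, the glucose transporter, was detected in only 7 high and 6 low cells.

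Iron storage and antioxidant genes also took a larger share, with medians of 48850 in the high, 42967 in the middle and 32089 in the low cells (1.52-fold). By mean log2, 10 of 19 were higher (52.6%, against 31.4% of all genes) and 1 lower. The ratio of means put 5 higher (26.3%, against 28.7%) and 3 lower (15.8%, against 21.8%). Fth1, of the same list, had medians of 14851 and 10841. Among cells with classical monocyte markers its medians were 10939.5 in the 14 highest and 13933.3 in the 14 lowest. Ftl1 (chr7:45457944-45459884), the ferritin light chain, was found in every cell, with a median of 15334 in the high cells (4689 to 79689) and 7373 in the low cells (1534 to 30025). For Ftl1, 5 high cells lay above every low cell and 8 low cells above the high median. Prdx1, a peroxiredoxin, had medians of 1787 and 929, and Prdx6, another, was detected in 19 and 6 cells. Hmox1, which breaks down heme, was lower by mean log2 (difference -1.08), at 7 high and 9 low cells. Lyz2 (chr10:117277331-117282321), lysozyme of macrophages, had a median of 22309 in the high cells (914 to 41784) and 10490 in the low cells (2.01 to 26600), and 9 high cells exceeded every low cell. Ferritin has many pseudogenes and Lyz2 a close copy, Lyz1, so reads may have been split between copies.

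Lysosomal genes had 37 of 43 higher (86.05%, against 31.4% of all genes) and 0 lower by mean log2. The ratio of means put 17 higher (39.5%, against 28.7%) and 2 lower. Their summed share was 15685 in the high, 16525 in the middle and 12190 in the low cells. Cd68, a lysosomal membrane glycoprotein of macrophages, had medians of 987 and 267, and Npc2, a cholesterol carrier, 344 and 31.6. Genes of growth and the Myc programme had 15 of 21 higher (71.4%, against 31.4%) and 0 lower by mean log2, and 10 higher (47.6%, against 28.7%) and 0 lower by the ratio of means. Their summed share was 2952 in the high, 2614 in the middle and 1756 in the low cells, and 21 of 24 high cells lay above the low median. Paics (chr5:76951307-76967509), a purine synthesis enzyme, was detected in 13 high and 4 low cells, with means of 125 ± 202 and 3.30 ± 10.8. Ran (chr5:129020069-129024323), the GTPase of nuclear transport, was detected in 21 and 12 cells, with medians of 239 and 1.20. Myc itself was found in 5 high and 1 low cell.

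**Figure D3:**
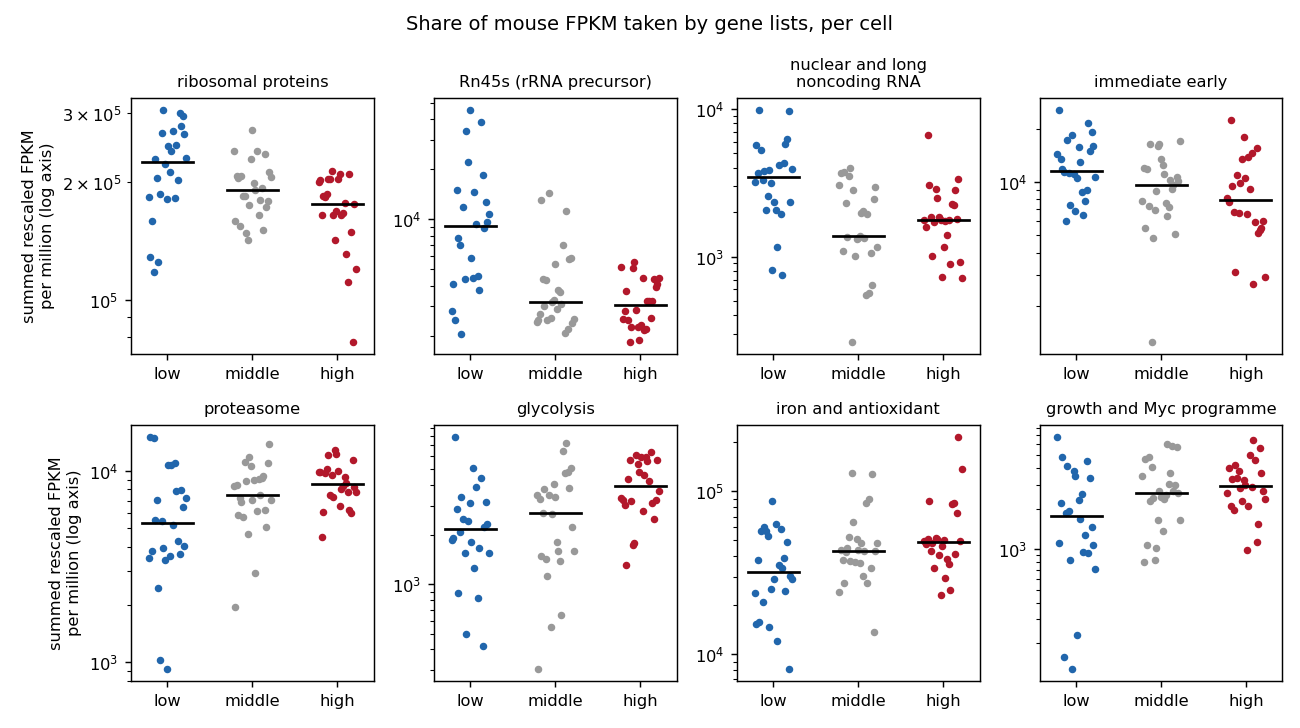
Summed rescaled FPKM per 1000000 (log axis) of 7 gene lists and of Rn45s, 1 point per low, middle or high cell, with bars at the medians. The top row holds shares that were smaller in the high cells, such as Rn45s at 3033 against 9136, and the bottom row shares that were larger, such as glycolysis at 3947 against 2153.

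Ribosomal protein transcripts, the largest group, took a smaller share of the high cells. Their summed share had a median of 176126 in the high cells (77679 to 214021), 191197 in the middle and 225248 in the low cells (117378 to 306771). None of the 24 high cells reached the low median, and 13 low cells lay above every high cell. Single genes differed little: Rpl41, the most abundant, had medians of 9122 and 10722, and Rps29 4945 and 6900. By mean log2, 12 of 79 were higher (15.2%, below the 31.4% of all genes) and 0 lower, with a median difference of 0.23. By the ratio of means 1 was higher and 1 lower, with a median of -0.41. For this list the share and the ratio of means were therefore lower in the high cells, while the mean log2 difference had the opposite sign. Per spike-in fragment, ribosomal protein fragments were still 3.24 times higher in the high cells, against 3.48 for all mouse genes. Many ribosomal protein genes have processed pseudogenes that can take reads from them.

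Rn45s, the entry for the 45S precursor of ribosomal RNA, stood highest in the low cells. It had a median of 3033 in the high cells (1821 to 5575), 3203 in the middle and 9136 in the low cells (2053 to 45818). Of the 24 low cells 16 exceeded every high cell, and no high cell reached the low median. Per 1000 spike-in fragments the medians were 37.4 in the high and 33.1 in the low cells, a 1.13-fold difference, against 3.48-fold for all mouse RNA. This RNA is made by RNA polymerase I and generally lacks a poly(A) tail, and its repeated genes make counting uncertain. The share difference was -1.59 on the log2 scale, -1.44 without wells of row H, and -0.62 when 36 cells were compared with 36.

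Malat1 (chr19:5795690-5802672), a long noncoding RNA kept in the nucleus, had a median of 1511 in the high cells (501 to 5649) and 2502 in the low cells (705 to 9659). Only 2 high cells exceeded the low median, and 4 low cells exceeded every high cell. The summed share of 13 nuclear and long noncoding transcripts was 1774 in the high, 1390 in the middle and 3483 in the low cells, mostly through Malat1. Snora81 (chr16:23110756-23110933), a small nucleolar RNA inside the translation factor gene Eif4a2, led the lower genes, with medians of 61.3 and 405. At equal depth it was found in 8 high and 18 low cells, and reads of Eif4a2 transcripts cannot be told apart from its own.

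Immediate early genes, which are switched on quickly by stimulation, had a summed share of 7912 in the high cells (2647 to 22432), 9555 in the middle and 11594 in the low cells (6051 to 25597). Of 25 genes 5 were higher (20%, against 31.4% of all genes) and 3 lower (12%, against 1.94%) by mean log2. By the ratio of means 0 were higher and 8 lower (32%, against 21.8%). Btg1 (chr10:96617006-96622809), an antiproliferative gene, had a median of 951 in the high cells (33.8 to 5603) and 2613 in the low cells (97.0 to 6789), and 18 low cells lay above the high median. Dusp1, whose promoter is printed above, had medians of 279 and 669. Klf2, a transcription factor of quiescent cells, had medians of 1.49 and 45.3, and Ier5 3.87 and 30.7. Fos, by contrast, had medians of 819 and 623, and Atf3, a stress-induced factor, 60.03 and 6.02.

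MHC class I genes had a share of 6301 against 8116. By mean log2, 0 of 11 were past the threshold in either direction, against 31.4% of all genes higher and 1.94% lower. The ratio of means put 0 higher (against 28.7%) and 6 lower (54.5%, against 21.8%). H2-K1 had medians of 431 and 725 and B2m, the common light chain, 4444 and 5667; class I genes are near-copies of each other and their values are uncertain. Ifitm3 (chr7:141009586-141010770), a membrane protein that restricts virus entry, had a median of 2432 in the high cells (0 to 5174) and 4922 in the low cells (0 to 10887), and 11 low cells exceeded every high cell. Clec4e (chr6:123281789-123289870), the receptor Mincle, had medians of 23.8 and 248 and was detected in 18 and 20 cells. Irf1, a transcription factor of the interferon response, was detected in 10 and 14 cells, with means of 63.4 and 428. Over 17 interferon response genes, 0 were higher and 2, Irf1 and Irf7, lower by mean log2 (11.8%, against 1.94% of all genes). The ratio of means put 7 higher (41.2%, against 28.7%) and 4 lower (23.5%, against 21.8%), and the medians of the 2 measures were 0.19 and -0.21, opposite in sign. Pabpc1, the poly(A) tail binding protein, was found in all cells of both groups, with medians of 241 in the high and 474 in the low cells. Eif3f, a translation initiation subunit, had medians of 14.1 and 72.7.

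**Figure D4:**
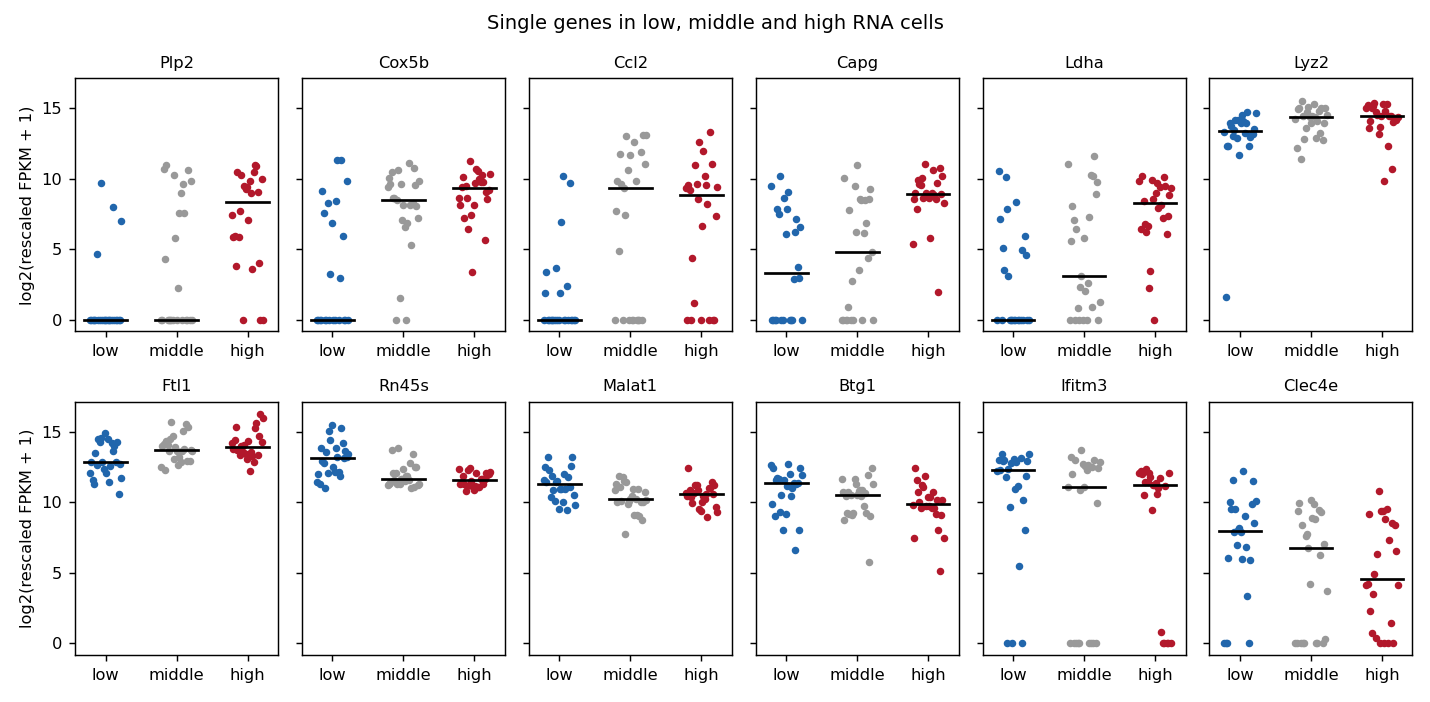
log2(rescaled FPKM + 1) of 12 genes in each low, middle and high cell, with bars at the medians and undetected genes at 0. Plp2, Cox5b, Ccl2, Capg and Ldha sit at 0 in 10 to 20 low cells, while Rn45s, Malat1 and Btg1 were found in every cell and were lower in the high cells.

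Cell cycle transcripts were found in large number in a few cells. At least 3 S phase or G2/M genes were present in 10 of 24 high cells (41.7%, interval 22.1 to 63.4%), 5 of 25 middle and 4 of 24 low cells (16.7%, interval 4.74 to 37.4%). Such counts can rise with the genes detected, whose medians were 3144.5 in the high and 2199 in the low cells. By mean log2, 2 of 10 S phase (20%) and 2 of 8 G2/M genes (25%) were higher, against 31.4% of all genes. Their median differences were 0.78 and 0.55. The ratio of means put 8 (80%) and 7 (87.5%) higher, against 28.7%. Summed levels in high and low cells had medians of 199 and 78.7 for S phase, and 15.8 and 18.1 for G2/M. The 3 cells with the highest ratios (6.05, 4.26 and 4.20) carried 14, 11 and 13 S phase genes, and 6, 15 and 20 G2/M genes. The only other cell with 10 or more S phase genes was the highest of the middle group, at a ratio of 2.17. A high cell at a ratio of 2.95 carried 16 G2/M genes and 3 S phase genes. Mcm3, part of the replicative helicase, was detected in 7 high, 2 middle and 0 low cells. Birc5, an inhibitor of apoptosis made in mitosis, reached 1155 in a high cell and at most 4.96 in the low cells. Without the 19 cells that carried such genes, the 18 highest of the remaining cells against the 18 lowest gave 2054 genes higher and 219 lower by mean log2.

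The same comparison was repeated within the 44 cells with classical monocyte markers, taking the 14 highest and the 14 lowest ratios. All 28 were already among the high and low cells, so the comparison is not independent. In it 2283 genes were higher (33.5%) and 294 lower (4.31%), and 1693 of the 2138 higher and 84 of the 132 lower genes were shared. The ribosomal protein share was 0.763 times that of the low cells, against 0.782 over all cells, the immediate early share 0.763 against 0.682 and the noncoding share 0.547 against 0.509. The median mean log2 difference of immediate early genes turned from -0.31 over all cells to 0.42 within monocyte-marker cells. The median over all genes there was 0.51. Of 25 immediate early genes, 6 were higher and 2 lower there, against 33.5% and 4.31% of all genes. Glycolysis was 2.41-fold, iron and antioxidant genes 1.74-fold, growth genes 1.84-fold, the proteasome 1.37-fold and lysosomal genes 1.55-fold higher. Plp2 and Capg differed by 5.81 and 4.92 in mean log2 in the monocyte-marker cells, close to the 5.87 and 4.69 over all cells. Ifitm3 differed by -1.66 in mean log2 over all cells and -0.10 among monocyte-marker cells, where its medians were still 3080 in the high and 7173 in the low cells and its log2 ratio of means was -0.84.

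Class II genes went the other way within these cells. Over all cells 5 of 6 measured MHC class II genes were higher in the high cells, with a median difference of 1.17 (83.3%, against 31.4% of all genes by mean log2). Within monocyte-marker cells the median was -0.53 and the summed share 0.386-fold. Cd74, the invariant chain, ranged from 0 to 79106 in the high and from 0 to 22173 in the low cells, with medians of 40.9 and 13.8, so its mean rested on a few cells. Treml4 and Ace, markers of non-classical monocytes, were each detected in 1 high and 7 low cells. Over 10 such markers 1 was higher and 5 lower (50%, against 1.94% of all genes) by mean log2, with a median of -0.76 over all cells and 0.80 within monocyte-marker cells. Their summed share, with medians of 797 in the high and 655 in the low cells, differed in sign from that median over all cells.

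**Figure D5:**
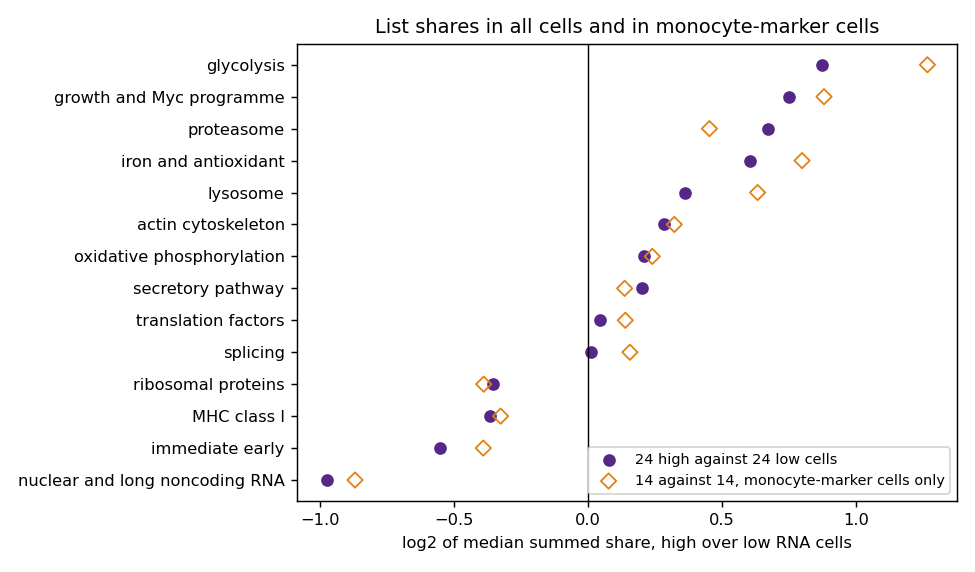
log2 of the median summed share in high over low cells for 14 gene lists, over all 24 against 24 cells (filled circles) and within cells with classical monocyte markers, 14 against 14 (open diamonds). Each of these 14 lists lies on the same side of 0 in both comparisons, from noncoding RNA on the left to glycolysis on the right. MHC class II is not plotted.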

How the data were processed

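Polyadenylated RNA of 73 single cells was sequenced, and every cell was matched to its column through the cell number in its title, with 0 columns left over. The submitters' processing notes name CASAVA (1.8), TopHat2 (2.1.0), Cufflinks (2.2.1), Cuffnorm and genome build mm10. Annotation, strand setting and cell filters are not given in the sources used here. FPKM values, deposited by the authors, are fragments per kilobase of transcript scaled for depth. Values of the deposited count table were treated as a signal, because they are scaled and mostly not whole. In 99703 values of 0.5 to 20 times the cell's smallest common value, 99.6% were whole multiples of it to within 0.1. Dividing by that value gave estimated fragments.

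The ratio of summed mouse values (23994 gene rows) to spike-in RNASPIKE1-EC02 ranked the cells. The 92 ERCC rows were 0, and 1 of 8 rows of the other spike-in series held values. Mouse FPKM, which summed to between 168983 and 691698 per cell, was rescaled to 1000000 per cell. Genes at 1 or more in at least 8 cells were compared as the mean of log2(value + 1), and as a ratio of means with 1 added to each, an alternative added after seeing the data. Means and fold ratios printed for single genes have nothing added. Low genes are understated on the first scale. A list's summed share is the sum of its rescaled FPKM in a cell. Cells were thinned to 347003 fragments without replacement, with a fixed seed.

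Named genes were the 15 with the largest difference in each direction among genes detected in at least 12 of the 24 cells of the higher group, the 15 with the highest mean, the sort genes, and members of 27 function lists and 15 marker lists. Groups, members and lists were chosen with earlier results of these data known. As all cells came from 1 mouse, no test and no count model was run. The difference measures were tested on simulated data, and no doublet caller was run. Mir1954, second among the higher genes, is not described because its difference was not borne by whole fragments. Gene positions are from GENCODE vM21 on GRCm38, the assembly behind mm10. Python 3.11.15, numpy 2.4.6, pandas 2.3.3 and scipy 1.17.1 were used.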

Additional observations from a re-analysis of the deposited data

How the results depend on the processing

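Shares were run under alternatives for Rn45s and for 12 of the 27 function lists, and these kept their direction under all 15 run for each. The other lists were not run, and not all of them held. Between all cells and monocyte-marker cells the MHC class II share went from 1.49-fold to 0.386-fold. The cytokine and chemokine share went from 1.04-fold to 0.880-fold. For Rn45s the share difference was -0.62 with 36 cells against 36, where the ratio of medians of RNA content was 2.24. The ribosomal protein share came closest to 0 without rescaling, at -0.03. Counts of higher genes ranged from 1645 to 3381, the latter with a pseudocount of 0.1, which also gave 228 lower genes. Counts of lower genes were less stable: 48 without rescaling, 47 with 36 against 36, 219 without cell cycle cells, 294 in monocyte-marker cells and 1487 by the ratio of means.

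With a pseudocount of 0.1 the median differences were 1.46 for ribosome biogenesis, 2.203 for splicing, 3.53 for oxidative phosphorylation and 3.75 for the proteasome. By the ratio of means, the medians of splicing (-0.060), translation factors (-0.19), MHC class I (-1.12) and noncoding RNA (-0.91) changed sign. Those of ribosomal proteins (-0.41), interferon response (-0.21) and apoptosis and stress response genes (-0.071) changed sign too. The same measure gave 0.28 for RNA polymerase II, 0.18 for oxidative phosphorylation, 0.31 for glycolysis, 0.19 for actin, 0.45 for the proteasome, 0.22 for the secretory pathway, 0.67 for the lysosome, 2.52 for S phase, 2.96 for G2/M, 0.34 for iron and antioxidant genes and 0.84 for growth genes. MHC class II was at -0.53 in monocyte-marker cells, and Mir1954, a microRNA entry inside Eng, was at -0.51 after thinning. The causes were not tested. No paired analysis was possible because all cells belong to 1 group of 1 mouse and their numbers name single cells. Depth limits genes near 1 fragment, and a gene listed at 0 in a low cell is not shown to be absent from it.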
